A study of Rattus norvegicus with 10 samples.

Results

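Immediate early genes are switched on within minutes of neuronal activity, growth factors or injury signals, without new protein synthesis, by kinases that act on factors already bound at their promoters, such as CREB at the CRE and SRF with an ELK partner at the CArG box. Most encode transcription factors that are themselves short-lived, and some, such as *Fos*, are widely used as marks of recent neuronal activity. The 10 genes followed here were 2 *Fos* family genes (*Fos*, *Fosb*) and *Junb* of the AP-1 factors, the zinc finger factors *Egr1* and *Egr3*, the orphan nuclear receptors *Nr4a1* and *Nr4a3*, the Krüppel-like factor *Klf4*, *Arc*, which encodes a protein of dendrites and synapses, and *Zfp36*, whose protein (tristetraprolin) binds AU-rich elements and speeds mRNA decay. They were chosen by name, with earlier results of these data known. Every probe whose accession matched one of them was kept, which gave 11 probes of 10 genes, of 15507 named genes on the array.

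RNA was from the whole trigeminal ganglion (TG) of both sides of male Wistar rats, 8-week-old as the methods state for the model, with 1 array per rat. The 5 naive rats received anesthesia alone. The 5 rats of the oral ulcerative mucositis (OUM) model were anesthetized, a filter paper with 50% acetic acid was laid on the mucosa at the lower incisors for 30 s, and TGs were taken on day 2, when ulcers were visible. All rats of both groups were again anesthetized with pentobarbital and perfused with cold saline before dissection, and the whole ganglion holds neurons that supply the whole face as well as glia, vessels and immune cells. A single time was sampled, and p-values measure the spread between these rats.

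Levels are log2 of the background-subtracted intensity relative to the 75th percentile of its own array, so that 0 is the brightness of a probe at that percentile, and they are compared between arrays for 1 probe only. The 75th percentile lay between 2617 and 2939 intensity units, and 69.1 to 75.7% of probes were well above background. The arrays lay on 2 slides, with naive 1, 2, 3 and 5 and OUM 1, 2 and 3 on slide 1 and with naive 4 and OUM 4 and 5 on slide 2, and values within each slide are given where they matter. Neuron, satellite glia and Schwann cell markers were present on every array. The summed level of the 6 tested of 8 pituitary markers (the array 75th percentile as 1) was 0.69 to 21.8 in naive and 1.39 to 26.3 in OUM rats. It was highest in naive 1, OUM 1 and OUM 2. Values without these 3 arrays are given where they differ by over 1.5 times, turn or end an unadjusted call. With fewer cells of a type and less RNA per cell, a bulk sample gives the same reading, and the arrays cannot tell these apart.

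The sequence before the annotated start was looked up for the members, because both activity-dependent elements named above lie in such sequence. A RefSeq table of the GRCr8 assembly held 6 of the 10 members. Shown are 250 bases, 5′ to 3′, for *Nr4a1* and *Zfp36*, whose 5 OUM arrays all lay above the 5 naive arrays. For *Zfp36* this was by a very small margin, at signals near background. *Junb*, whose groups overlapped, is shown as well. *Fosb*, *Egr1* and *Klf4* were also held, but their sequences are not shown. Whether their motifs differ from those below cannot be read here. Capitals mark CRE cores (CGTCA, on either strand), the CArG box and the TATA box (TATAAA, on either strand).
Nr4a1, chr7:134259888-134260137, plus strand: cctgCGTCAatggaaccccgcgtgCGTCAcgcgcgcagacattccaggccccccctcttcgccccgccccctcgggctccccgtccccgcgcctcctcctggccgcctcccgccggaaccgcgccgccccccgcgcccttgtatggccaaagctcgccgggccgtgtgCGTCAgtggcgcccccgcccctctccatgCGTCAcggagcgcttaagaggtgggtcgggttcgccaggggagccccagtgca
Zfp36, chr1:92799109-92799358, minus strand: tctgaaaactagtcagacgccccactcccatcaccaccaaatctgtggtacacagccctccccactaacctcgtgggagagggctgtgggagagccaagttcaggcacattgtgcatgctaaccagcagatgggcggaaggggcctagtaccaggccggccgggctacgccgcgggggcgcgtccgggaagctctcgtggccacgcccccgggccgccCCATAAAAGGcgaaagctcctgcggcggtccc
Junb, chr19:40080876-40081125, plus strand: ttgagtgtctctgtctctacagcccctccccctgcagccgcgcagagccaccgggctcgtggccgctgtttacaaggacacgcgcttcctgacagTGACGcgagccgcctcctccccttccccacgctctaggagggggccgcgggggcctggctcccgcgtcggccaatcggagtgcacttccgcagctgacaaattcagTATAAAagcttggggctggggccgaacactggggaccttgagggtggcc

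The *Nr4a1* sequence held 4 CRE cores, which begin at -246, -226, -82 and -53 from the annotated start. Of 33469 upstream sequences of the same length, 18.2% held at least 1 CRE core and 0.173% (58 sequences) held 4 or more. The *Nr4a1* sequence was 74.8% G and C, while the median of all upstream sequences was 51.2%, and these shares were not adjusted for that. The *Zfp36* sequence held a CArG box at -32 to -23, a motif found in 1.5% of all upstream sequences, and no CRE core. Its CArG box shared 1 base with a GC box (GGGCGG), a motif found 2 times in *Zfp36*, 3 times in *Nr4a1* and in 30.5% of all sequences. *Junb* held 1 CRE core at -155, a TATA box at -49, which 12.9% of sequences had, and a CCAAT box (CCAAT) at -85, which 34.0% had. The AP-1 site (TGANTCA) and the NBRE to which NR4A receptors bind (AAAGGTCA), found in 6.34% and 1.24% of sequences, did not occur in these 3 windows. These matches describe letters, and no binding was measured. The *Nr4a1* and *Zfp36* sequences were picked by the values of these genes on the arrays, so the shares are a description, and a link between motif and level was not tested.

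*Nr4a1* was the member whose groups were the farthest apart relative to their spread, and *Klf4* was next. The other members either overlapped between naive and OUM rats or were too dim to be measured on every array. In the limma comparison of 21545 probes (those detected well above background throughout the naive or the OUM group), 8 member probes were tested, 5 with a higher and 3 with a lower mean in the OUM model. None passed a limma adjusted p of 0.05, which 0.00928% of all probes did (1 higher and 1 lower). At an unadjusted limma p under 0.05, 2 members were higher and 0 lower, against 3.75% and 5.16% of all probes. The median log2 fold change of the 8 was 0.14, beside -0.014 over all probes tested. As the members were chosen with earlier results of these data known, their counts and median are a description. Of 7 tested neuron markers, 6 had a lower mean in OUM rats, while 44.4% of all probes had a higher mean. *Scn9a* alone was lower at an unadjusted limma p under 0.05 (-0.15, limma adjusted p = 0.421). Of 5 tested satellite glia markers, 3 had a higher and 2 a lower mean, with *Fabp7* lower at that level (-0.31, limma adjusted p = 0.486). The summed neuron level was 342 to 371 in naive and 319 to 380 in OUM rats. The part of these markers in the member values was not tested.

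With slide as a block, *Nr4a1*, *Klf4*, *Fos* and *Arc* were higher at that level and 0 members lower, against 4.59% and 7.1% of all probes. Within slide 1, *Nr4a1*, *Klf4* and *Fos* were higher and *Fosb* lower, against 4.26% and 9.67%. Slide 2 has 1 naive and 2 OUM arrays, and its values are given below as differences without a call. Without the 3 pituitary-rich arrays, *Nr4a1*, *Klf4* and *Fos* were higher and 0 members lower, against 4.46% and 3.97%. None of these passed a limma adjusted p of 0.05.

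**Figure D1:**
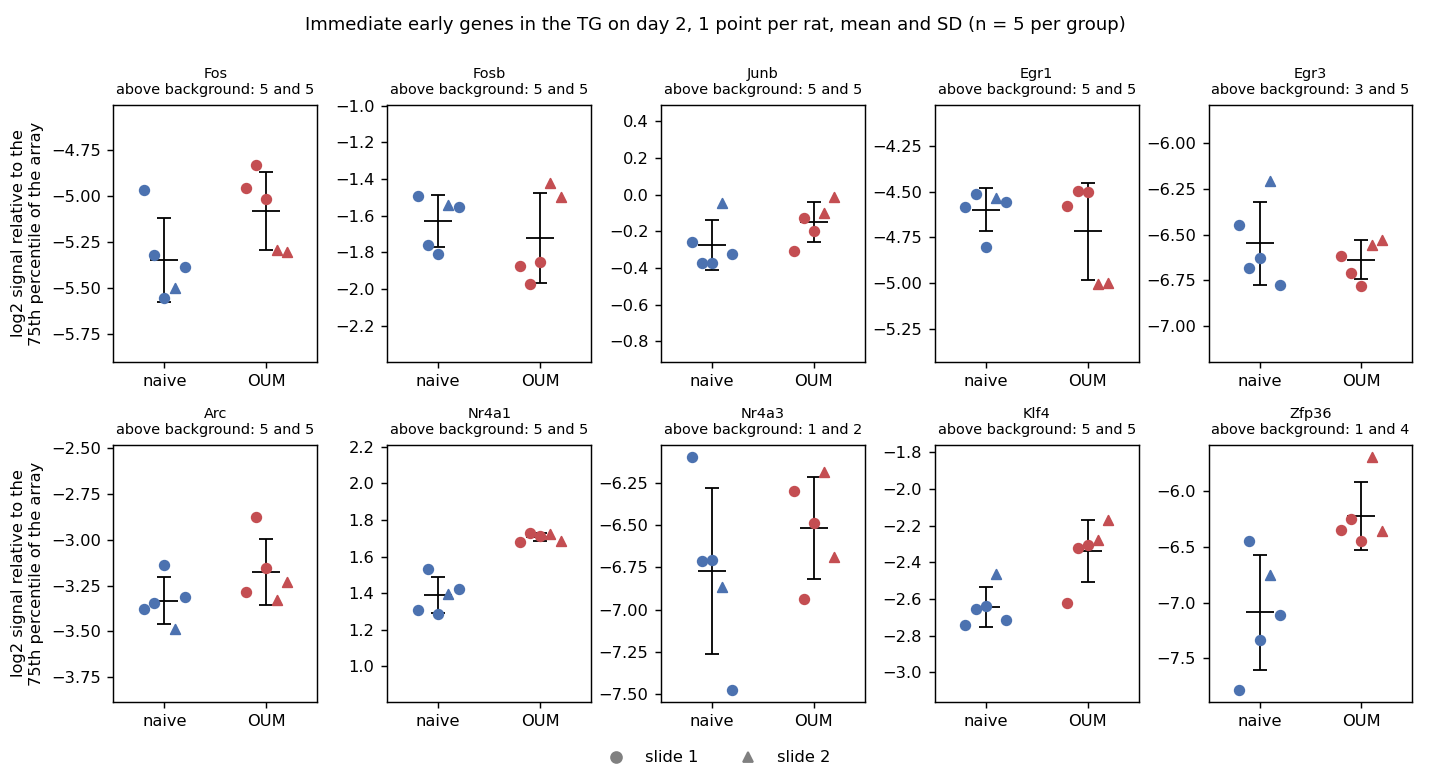
Log2 signal of each of the 10 immediate early genes relative to the 75th percentile of the array (y axis, a span of at least 1.4 in each panel) in naive and OUM rats, 1 point per rat, with circles for slide 1, triangles for slide 2 and a black bar for mean and SD (n = 5). Panel titles give the number of naive and of OUM arrays on which the probe was well above background. The 5 OUM rats lie above the 5 naive rats for *Nr4a1* and, by a very small margin, for the dim *Zfp36*. The slide 2 rats lie apart within the OUM group for *Fos*, *Fosb* and *Egr1*.

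Among the nuclear receptors, *Nr4a1* (Nur77; probe A_42_P682589, 10 spots per array) stood at 1.31, 1.53, 1.29, 1.39 and 1.43 in naive rats 1 to 5 and at 1.68, 1.73, 1.71, 1.73 and 1.68 in OUM rats 1 to 5. Every OUM rat lay above every naive rat, which held for 0.752% of all probes tested, while 1.05% had every OUM rat below. The mean level was 1.39 ± 0.098 in naive and 1.71 ± 0.023 in OUM rats (SD, n = 5 each), a log2 fold change of 0.32 (SE 0.051, 95% interval 0.20 to 0.43), or 1.25-fold (1.15 to 1.35). The limma adjusted p was 0.142, the exact permutation p was 0.00794, the smallest that 5 against 5 arrays allow, and *Nr4a1* ranked 14 of 21545 probes by limma p. The log2 difference was 0.32 within slide 1, 0.31 within slide 2 and 0.30 without the 3 pituitary-rich arrays. The spots of this probe varied within an array by an SD of 0.023 to 0.067.

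*Nr4a3* (NOR-1; probe A_43_P12619), its relative, was well above background on 1 naive and 2 OUM arrays and was therefore not tested. Its levels were -6.10, -6.71, -6.71, -6.87 and -7.48 in naive and -6.30, -6.94, -6.49, -6.19 and -6.69 in OUM rats. Both groups spanned much of the same range, and on most arrays the signal has only a bound.

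*Klf4*, a factor of epithelia, endothelium and stem cells (probe A_43_P12908), stood at -2.74, -2.66, -2.64, -2.47 and -2.71 in naive and at -2.62, -2.32, -2.30, -2.28 and -2.17 in OUM rats. OUM rats 2 to 5 lay above all naive rats, and OUM 1 lay among them. The means were -2.64 ± 0.11 and -2.34 ± 0.17 (SD, n = 5 each), a log2 fold change of 0.30 (SE 0.086, 95% interval 0.11 to 0.49), with a limma adjusted p of 0.442 and an exact permutation p of 0.0159. The difference was 0.27 within slide 1 and 0.24 within slide 2, and 0.37 without the pituitary-rich arrays. Markers of endothelium, which also uses *Klf4*, differed in parts: *Tie1* was 0.41 and *Cldn5* 0.27 higher on the log2 scale (limma adjusted p = 0.391 and 0.292), 2 of 6 endothelial markers at an unadjusted p under 0.05. The other 4 were 0.14 (*Pecam1*), 0.0075 (*Cdh5*), -0.051 (*Tek*) and -0.10 (*Kdr*). The summed endothelial level was 3.41 to 3.87 in naive and 3.38 to 4.00 in OUM rats, and the part of these markers in the *Klf4* difference was not tested.

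The *Fos* family members did not move together. *Fos* (c-Fos; probe A_64_P131051), whose protein pairs with JUN proteins, was dim, at -4.97, -5.32, -5.56, -5.50 and -5.39 in naive and -4.95, -4.83, -5.02, -5.30 and -5.30 in OUM rats. Naive 1 reached the level of the OUM rats on slide 1, and OUM 4 and 5 on slide 2 lay among the naive rats. The log2 fold change was 0.27 (SE 0.13, 95% interval -0.018 to 0.55), with a limma adjusted p of 0.577 and an exact permutation p of 0.0794. It was 0.38 within slide 1 and 0.20 within slide 2, and with slide as a block it was 0.33 (limma adjusted p = 0.342). With normexp background correction, another way of removing background from the spot medians, it was 0.10.

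*Fosb*, the close relative of *Fos* whose truncated product is long-lived (probe A_44_P295042), stood at -1.49, -1.76, -1.81, -1.54 and -1.55 in naive and at -1.87, -1.97, -1.85, -1.42 and -1.50 in OUM rats. The 3 OUM rats on slide 1 were the lowest of all 10, and the 2 on slide 2 were among the highest. Over all arrays the log2 fold change was -0.094 (SE 0.12, 95% interval -0.35 to 0.17; limma adjusted p = 0.839). It was -0.25 within slide 1 (limma adjusted p = 0.312), 0.080 within slide 2 and 0.073 without the pituitary-rich arrays, so its direction rested on which arrays were compared.

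*Junb*, an AP-1 partner (probe A_64_P029805, 1 spot per array), stood at -0.26, -0.38, -0.37, -0.044 and -0.32 in naive and at -0.31, -0.13, -0.20, -0.10 and -0.013 in OUM rats. The slide 2 rats of both groups were its 3 highest. The log2 fold change was 0.12 (SE 0.077, 95% interval -0.047 to 0.29), with a limma adjusted p of 0.666 and an exact permutation p of 0.151. It was 0.12 within slide 1 and -0.014 within slide 2.

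*Egr1*, a zinc finger factor induced through SRF (probe A_64_P082693), stood at -4.59, -4.51, -4.80, -4.54 and -4.56 in naive and at -4.58, -4.50, -4.50, -5.00 and -5.00 in OUM rats. OUM 4 and 5 on slide 2 were the lowest of all rats, while the OUM rats on slide 1 lay within or just above the naive range. The log2 fold change was -0.12 (SE 0.12, 95% interval -0.38 to 0.15; limma adjusted p = 0.795), with 0.090 within slide 1 and -0.47 within slide 2, where a single naive array stood against 2 OUM arrays, and -0.23 without the pituitary-rich arrays.

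*Egr3*, a relative of *Egr1*, had 2 probes. The brighter (A_64_P128219) was well above background on 3 naive and 5 OUM arrays, at -6.45, -6.68, -6.63, -6.21 and -6.78 in naive and -6.62, -6.71, -6.78, -6.56 and -6.53 in OUM rats. Its groups overlapped almost entirely, with a log2 fold change of -0.090 (SE 0.10, 95% interval -0.32 to 0.14; limma adjusted p = 0.820), -0.068 within slide 1 and -0.34 within slide 2, whose single naive array is naive 4. Without naive 4 it was -0.0042, and without the pituitary-rich arrays -0.048. The other probe (A_64_P091765) was not well above background on any of the 10 arrays, so no fold is given.

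*Arc* (probe A_44_P118724, 10 spots per array) stood at -3.38, -3.34, -3.14, -3.49 and -3.31 in naive and at -3.28, -2.88, -3.15, -3.33 and -3.23 in OUM rats. OUM 2 was the highest of all rats, and the other OUM rats lay among the naive rats. The log2 fold change was 0.16 (SE 0.093, 95% interval -0.050 to 0.36), with a limma adjusted p of 0.652 and an exact permutation p of 0.151. It was 0.19 within slide 1 and 0.21 within slide 2, 0.19 with slide as a block (limma adjusted p = 0.413), and 0.082 without the pituitary-rich arrays, among which is OUM 2.

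*Zfp36* (probe A_44_P435596) was the other member whose groups did not overlap, but it was well above background on only 1 naive and 4 OUM arrays and so was not among the tested probes. Its levels were -7.78, -6.45, -7.34, -6.75 and -7.11 in naive and -6.35, -6.25, -6.45, -5.69 and -6.35 in OUM rats, which are intensities of 12.1 to 31.9 and 31.5 to 57.0 units. The highest naive rat (-6.449) and the lowest OUM rat (-6.446) were nearly equal. Before scaling, their intensities, 31.9 and 31.5 units, were in the reverse order. Every OUM rat lay above every naive rat in 0.752% of the tested probes and below in 1.05%, and *Zfp36* is not among these. Its exact permutation p was 0.00794, and in a fit without the background filter the log2 difference was 0.87 (SE 0.25, limma adjusted p = 0.682). Its size is not exact, since 4 of the 5 naive readings were not well above background.

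**Figure D2:**
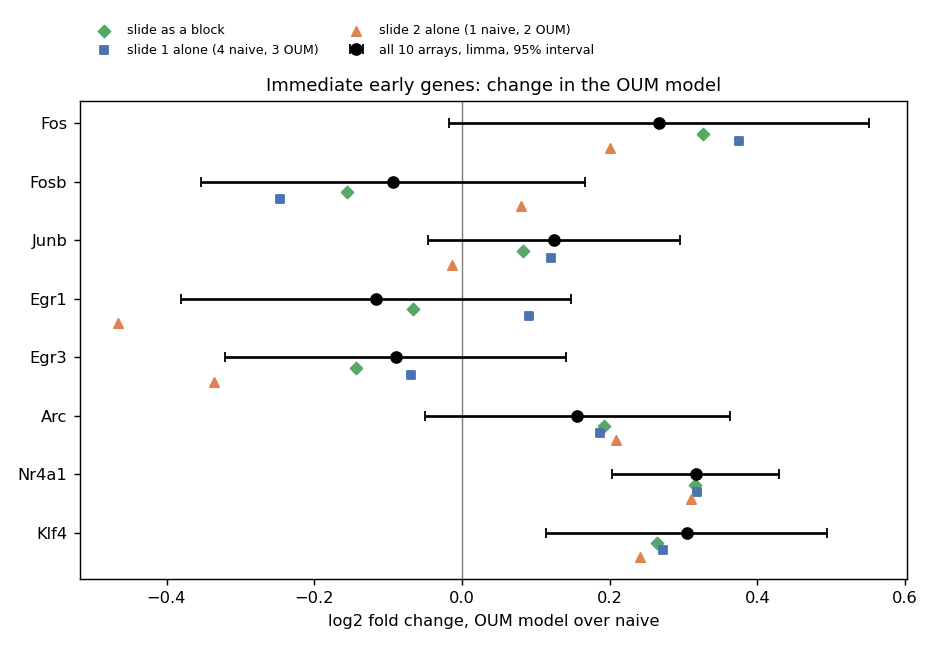
Log2 fold change of the OUM model over naive (x axis) for the 8 tested immediate early genes, with the limma estimate and 95% interval over all 10 arrays in black, and coloured marks for 3 other estimates (slide as a block, slide 1 alone, slide 2 alone). *Nr4a1* gives 0.31 to 0.32 in all 4, whereas *Egr1* runs from -0.47 to 0.090 and *Fosb* from -0.25 to 0.080.

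Relatives of 1 family were set against each other on the same array, as the log2 ratio of their signals, which the scaling of the array does not touch. The 5 pairs were chosen after the single values were seen, so the differences are a description without a test. *Nr4a1* over *Nr4a2* (Nurr1) was 0.28 higher in OUM than in naive rats. *Nr4a2* itself had a log2 fold change of 0.033 (SE 0.057). Relative to its naive mean, this ratio was 0.21, 0.24, 0.23, 0.37 and 0.36 in OUM rats 1 to 5 and -0.11, 0.26, -0.14, 0.067 and -0.080 in naive rats 1 to 5. Naive 2 reached the OUM range, and the other naive rats lay below it.

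*Egr2* (Krox20, the myelination factor of Schwann cells) over *Egr1* was 0.50 higher in OUM rats. The ratio was 0.35, 0.0020, 0.28, 0.99 and 0.87 above its naive mean in OUM rats 1 to 5, with the largest values on slide 2, and it differed by 0.26 within slide 1 and 0.72 within slide 2. *Fos* over *Fosb* differed by 0.36, with 0.62 within slide 1 and 0.12 within slide 2. *Junb* over *Jun* differed by 0.049, and *Klf4* over *Klf2* by -0.10, as both Krüppel-like genes had higher means in OUM rats.

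**Figure D3:**
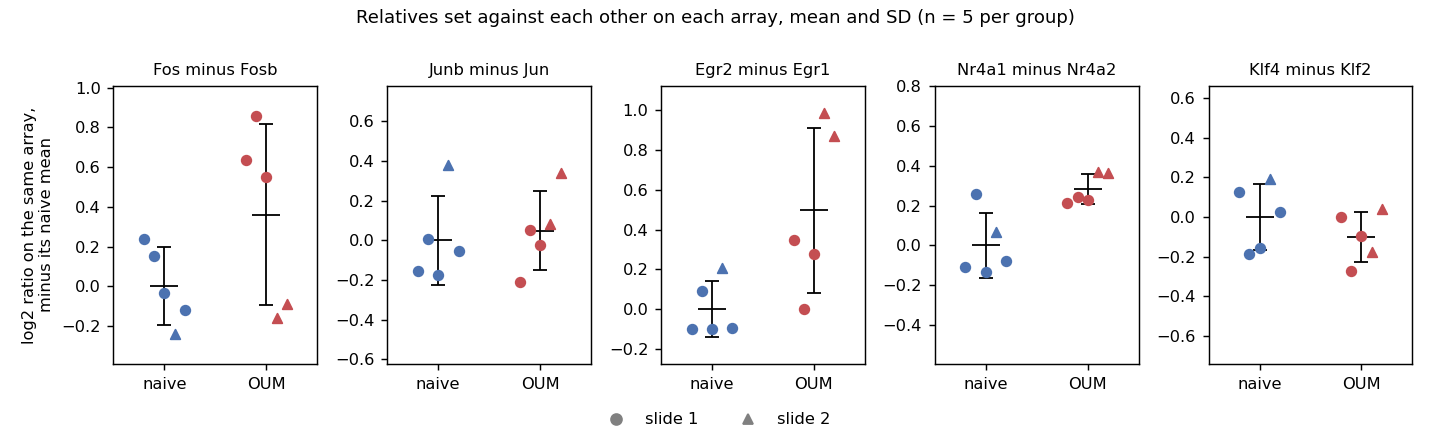
Log2 ratio of 2 relatives on the same array minus the naive mean of that ratio (y axis) in naive and OUM rats, 1 point per rat, circles for slide 1 and triangles for slide 2, with mean and SD (n = 5). *Nr4a1* over *Nr4a2* is 0.28 and *Egr2* over *Egr1* 0.50 higher in OUM rats, and *Fos* over *Fosb* is high in the 3 OUM rats of slide 1.

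Among the 8 tested members, the spread within a group was widest for *Fos*, *Egr1* and *Fosb* and narrowest for *Nr4a1*. The pooled SD within groups was 0.22 for *Fos*, 0.20 for *Egr1*, 0.20 for *Fosb* and 0.071 for *Nr4a1*, beside a median of 0.125 over all probes. As percentiles of all probes tested, these SDs ranged from 17.6 for *Nr4a1* to 79.3 for *Fos*, with a median of 65.9 over the 8 members. The percentiles take no account of brightness or of spots per array. *Nr4a1* was bright with 10 spots and *Fos* dim with 2, and the part of this in the ranking was not tested. For *Fosb* and *Egr1* much of this spread lay between the OUM rats of slide 1 and those of slide 2. Naive 4, on slide 2, lay within the range of the other naive rats for both genes. Within group and slide together (6 degrees of freedom), the SD was 0.18 for *Fos*, 0.12 for *Fosb*, 0.095 for *Egr1* and 0.082 for *Nr4a1*, beside 0.0994 over all probes, and the median percentile of the 8 was 56.8. *Nr4a3* and *Zfp36*, which were dim and not tested, had SDs of 0.30 to 0.52 within a group.

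Correlations among the members over all arrays were unlike those over slide 1 alone, and the difference was not tested. Over the 21 pairs of the 7 members detected on all 10 arrays, 14 had a positive Pearson r, the median r was 0.060, and 0 passed an adjusted p of 0.05 in a permutation test, with 3 at an unadjusted p under 0.05. *Junb* and *Klf4* gave r = 0.82 and rho = 0.76 over the 10 arrays (permutation p = 0.00754 and 0.0152, adjusted 0.127 and 0.233), 0.85 without the 2 arrays farthest in *Junb* and 0.78 within slide 1. *Fosb* and *Arc* gave r = -0.70 and rho = -0.66 (permutation p = 0.0155 and 0.0444, adjusted 0.127 and 0.233), and -0.56 without the 2 farthest arrays. The third pair was *Nr4a1* and *Klf4*, for which no pooled r is given because the groups of *Nr4a1* do not overlap. Within groups its r was 0.12. Over the 7 arrays of slide 1 alone, naive and OUM rats together, all 15 pairs without *Fosb* had a positive r, from 0.049 to 0.81, and all 6 pairs with *Fosb* a negative r, from -0.76 to -0.11. Examples are *Fos* and *Junb* (0.81), *Arc* and *Klf4* (0.80) and *Fosb* and *Klf4* (-0.76). The points share a slide and hold the difference between the groups, also in the pairs with *Nr4a1*, and these values are a description. Within slide 1 the mean of *Fosb* was 0.25 lower in OUM rats, and those of the other members were 0.090 to 0.38 higher. With the mean of each group removed, over all 10 arrays, r was -0.31 for *Fos* and *Junb* and -0.023 for *Arc* and *Klf4*. In the same way it was 0.38 for *Fosb* and *Klf4* and 0.80 for *Junb* and *Klf4*.

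**Figure D4:**
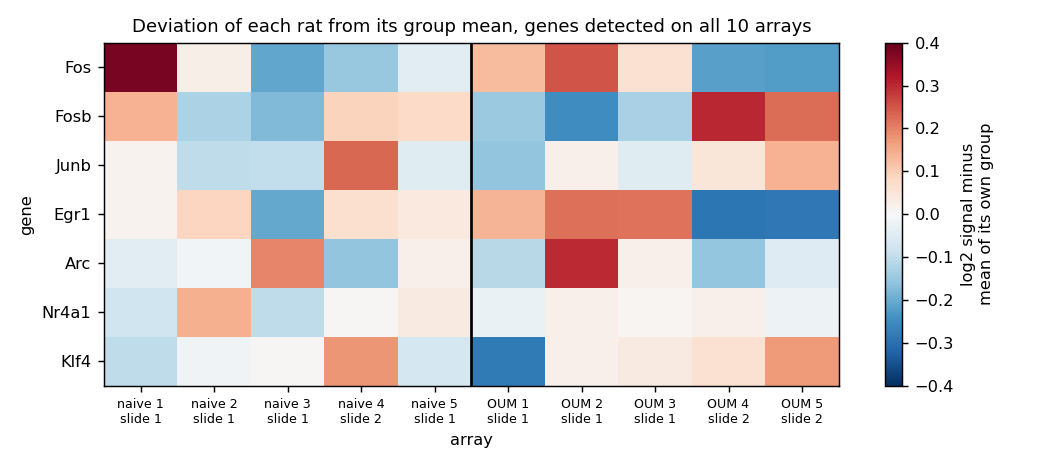
Deviation of each array's log2 signal from the mean of its own group (colour, from -0.4 in blue to 0.4 in red) for the 7 immediate early genes detected on all 10 arrays (rows) in the 5 naive and 5 OUM rats (columns, with slide). *Nr4a1* is pale in all OUM rats, *Fosb* is high and *Fos* and *Egr1* are low in OUM 4 and 5, and *Junb* and *Klf4* are both high in naive 4 and OUM 5.

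The genes whose deviations from the group means followed the mean deviation of the 7 members most closely, out of 11301 other named genes, were *Myh3* (r = 0.89 over 10 arrays), *Pld1* (0.88), *Ubn1* (0.87), *Abl1* (0.84), *Card9* (0.83), *Trmt1l* (0.83), *Rnf111* (0.79) and *Zfp213* (0.78). These are the highest of many correlations over 10 arrays and are given as a description. None of them is in the lists of rapid response genes used here.

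Among relatives of the members and other rapid response genes, more had a higher than a lower mean, and none passed a limma adjusted p of 0.05. Of 60 such genes, chosen with earlier results of these data known, 58 were on the array and 53 were tested. At an unadjusted limma p under 0.05, 9 (17.0%) were higher and 0 lower, against 3.75% and 5.16% of all probes. A higher mean was seen in 36 (67.9%), which 44.4% of all probes had. The median log2 fold change was 0.061 over the 18 tested relatives of the members and 0.059 over the 35 other rapid response genes. Without the 3 pituitary-rich arrays, 3 of the 53 were higher at that level, against 4.46% of all probes.

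*Atf3*, the injury-induced factor of sensory neurons that pairs with JUN proteins, had the lowest p among the relatives. It was -0.98 ± 0.10 in naive and -0.52 ± 0.16 in OUM rats (SD, n = 5 each), a log2 fold change of 0.46 (SE 0.083; limma adjusted p = 0.200, exact permutation p = 0.00794), with all 5 OUM rats above the naive rats. Among the 53 tested relatives and other rapid response genes, 1 was so placed, against 0.752% of all probes. The *Atf3* difference was 0.42 within slide 1, 0.59 within slide 2 and 0.48 without the pituitary-rich arrays. *Klf2*, a flow-induced factor of endothelium, was 0.41 higher (SE 0.12) with 4 of 5 OUM rats above all naive rats, beside the endothelial markers above. *Egr2* was 0.38 higher (SE 0.12), also with 4 of 5, and *Klf9*, which glucocorticoid and thyroid hormone induce, 0.15 (SE 0.076) with none. The limma adjusted p of these 3 was 0.455 to 0.596. For *Klf9* the difference was -0.11 within slide 2 and 0.076 without the pituitary-rich arrays. *Egr2* is itself a Schwann cell marker, and of the other 5 *Sox10* was 0.17 higher at an unadjusted limma p of 0.0164, with a summed Schwann cell level of 336 to 389 in naive and 338 to 372 in OUM rats. The part of Schwann cells in the *Egr2* value was not tested.

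Of the other rapid response genes, the lowest p belonged to *Csrnp1*, the nuclear protein AXUD1, *Ccn2*, the matricellular growth factor CTGF, *Errfi1*, a feedback inhibitor of the EGF receptor, and *Bhlhe40*, a repressor of the clock and hypoxia responses. Their log2 fold changes were 0.26 (SE 0.074), 0.23 (SE 0.070), 0.26 (SE 0.088) and 0.26 (SE 0.091), with limma adjusted p of 0.455 to 0.486. In each, between 1 and 4 of the 5 OUM rats lay above all naive rats. A second probe of *Csrnp1* gave 0.059, and *Errfi1* gave 0.019 within slide 2. Without the pituitary-rich arrays none of the 4 kept an unadjusted limma p under 0.05, with log2 fold changes of 0.15 (*Csrnp1*), 0.21 (*Ccn2*), 0.23 (*Errfi1*) and 0.26 (*Bhlhe40*).

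The kinases and transcription factors that act on immediate early genes had log2 fold changes from -0.16 to 0.16. All 26 on the array were tested, and 0 of them passed a limma adjusted p of 0.05. At an unadjusted limma p under 0.05, 0 were higher and 0 lower, against 3.75% and 5.16% of all probes. A higher mean was seen in 16 (61.5%), against 44.4% of all probes, and the median log2 fold change was 0.025. With slide as a block 4 were higher at an unadjusted limma p under 0.05, against 4.59% of all probes. The 4 with the lowest p were *Crebbp*, the coactivator CBP (0.14, SE 0.065), *Elk1*, the SRF partner (0.15, SE 0.074), *Mef2d*, an activity-regulated factor (0.16, SE 0.078), and *Creb1* itself (-0.16, SE 0.079, and 0.070 within slide 2).

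**Figure D5:**
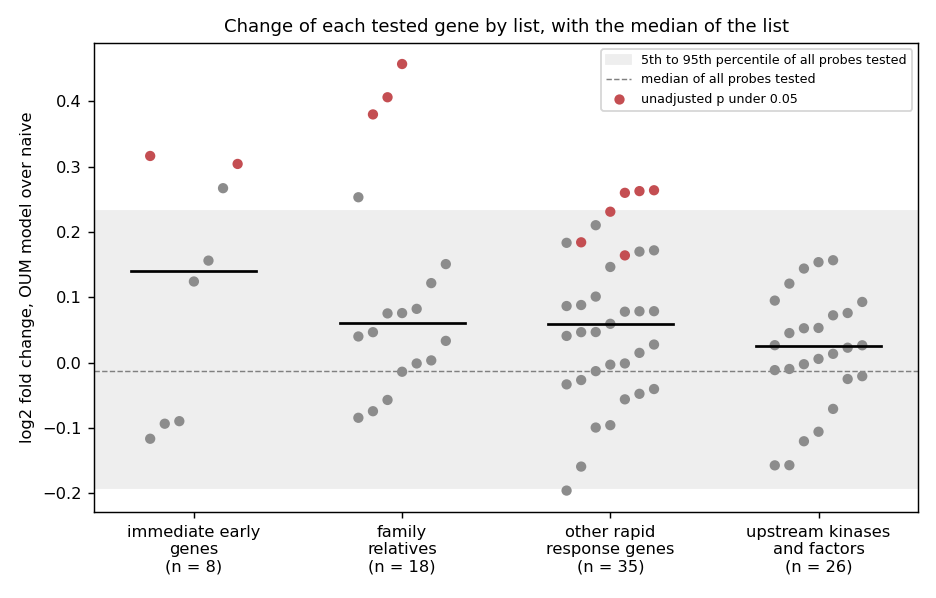
Log2 fold change of the OUM model over naive (y axis) for each tested gene of 4 lists, with a bar at the median of the list and red points at an unadjusted limma p under 0.05. The grey band spans the 5th to 95th percentile of all 21545 probes (-0.19 to 0.23), and the dashed line is their median. The red points are 2 members, 3 relatives and 6 other rapid response genes, all above 0, and no upstream gene is red. At that level 3.75% of all probes were higher and 5.16% lower.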

How the data were processed

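TG RNA of 5 naive and 5 OUM rats was labelled with Cy3 from 0.1 µg of RNA and hybridised to 1-colour Agilent rat arrays. The authors quantified the scans with Agilent Feature Extraction 10.7.1.1, and the processed signal deposited by the authors is an intensity per spot after background subtraction, with marks for outlier, saturated and well-above-background spots. The authors' value table was set against it: it holds the same signal divided by a constant per array as linear values (column medians 0.115 to 0.123). No column belonged to samples outside the series.

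Control and outlier spots were left out, and the spots of a probe were averaged on the linear scale. The log2 of this mean was then taken relative to the array's 75th percentile. Accessions were named through RefSeq (GRCr8), which gave 18438 of 30367 probes 1 symbol. Upstream sequences are from RefSeq, and a match was searched on both strands. The 21545 probes detected well above background in every array of either group were compared with limma 3.58.1 in R 4.3.3 (lmFit, eBayes, two-sided, Benjamini-Hochberg over all probes). Levels of single probes were compared by a two-sided exact permutation test, and pairs of members by a permutation test with 100000 resamples (scipy 1.17.1). The script was tested on simulated data.

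Each list gene is represented by its brightest probe. Named are all 10 members, the 4 genes of each list with the lowest p, the 8 genes of like pattern and markers that move with a result. *Scn9a* and *Fabp7* are named as the neuron and satellite glia markers lower at an unadjusted limma p under 0.05. The members and lists were chosen with earlier results of these data known. Alternatives covered background correction, scaling, the filter, probes per gene, weights, slide, replicate number as a block, the authors' table and each array left out.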

Additional observations from a re-analysis of the deposited data

Results flagged for a closer look

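In 2 of 22 groups of 5 arrays, 1 array stood apart from the other 4. Chance gives such an array in about 1 group in 20. For *Egr1*, naive 3 was at -4.80 and the nearest naive rat at -4.59, a gap of 0.745 of the range of the group. For *Zfp36*, OUM 4 was at -5.69 and the nearest OUM rat at -6.25, a gap of 0.742 of the range.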

How the results depend on the processing

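No member passed a limma adjusted p of 0.05 under any of 28 alternatives. The log2 fold change was 0.29 to 0.35 for *Nr4a1* and 0.24 to 0.37 for *Klf4* throughout. It was 0.10 to 0.38 for *Fos*, with the lowest under normexp background correction, and -0.34 to -0.0042 for *Egr3*, with the smallest without naive 4. The count of members higher at an unadjusted p under 0.05 was 4 with slide as a block and 1 within slide 2 alone, and the count lower was 1 within slide 1 alone and 2 within slide 2 alone. Slide 2 has 3 arrays, where 8.88% of all probes were higher and 3.44% lower, and its counts are not read as calls. Leaving out 1 array at a time gave 2 to 3 higher (2.65 to 5.49% of all probes), 0 lower (3.43 to 7.57%) and a median SD percentile of 59.6 to 70.1. That percentile was 55.1 with normexp background correction. The direction turned for *Egr1* (0.090 within slide 1 alone), *Fosb* (0.080 within slide 2 alone and 0.073 without the 3 pituitary-rich arrays) and *Junb* (-0.014 within slide 2 alone), and the cause was not tested. The other 219 values of single members kept their sign and side of the threshold. Rats of the same number did not deviate together (r from -0.092 to 0.32 over the 5 pairs). With the replicate number as a block, 3 members were higher (3.43% of all probes) and *Nr4a1* gave 0.32 with a limma adjusted p of 0.456. Over all probes, the count past the adjusted threshold was 2 and ran from 0 to 169, the latter within slide 2. The upstream list had 0 to 4 genes higher and 0 to 1 lower at an unadjusted p under 0.05. The relatives with the other rapid response genes had 3 to 12 higher and 0 to 2 lower. The shares of all probes were 3.75% higher and 5.16% lower in the main comparison and differed between settings. *Nr4a3*, *Zfp36* and *Egr3* are limited by signal near background.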
